A study of Mus musculus with 21 samples.

Results

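Glycolysis breaks glucose down to pyruvate, and the genes described here are 9 of its enzymes plus 1 glucose transporter: Slc2a1 (glucose uptake), Hk1 and Hk2 (hexokinases), Pfkl (phosphofructokinase, liver type), Aldoa (aldolase A), Pgk1 (phosphoglycerate kinase), Pkm and Pklr (the pyruvate kinase genes), and Ldha and Ldhb (subunits of lactate dehydrogenase). They were taken by symbol, through the Entrez identifier of each row, and all 10 were found among the 30519 genes of the count table. The libraries came from a study of Etv6, which encodes a transcriptional repressor of the ETS family needed in blood formation, and compare mutant with wild-type bone marrow cells. Hematopoietic stem cells (HSC), which can rebuild all blood lineages, and megakaryocyte-erythroid progenitors (MEP), which give rise to platelets and red cells, were isolated from marrow of mice by flow sorting, and their RNA was read by low-input sequencing. The genotypes were wild type (WT), Etv6 P216L, Etv6 S211I, and both changes together (double mutant), so 8 groups held 21 libraries: n = 3 in 5 of them and n = 2 in S211I of both cell types and in MEP WT, whose replicates are 1 and 3. The titles write S211I where another label field writes P211I, and the titles are followed here. The labels used here name no strain, age or zygosity, and do not say whether libraries of a group came from separate animals, so p values measure the spread between these libraries only.

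Pyruvate kinase and lactate dehydrogenase each come in isoenzymes from separate genes. Pkm encodes the M-type pyruvate kinases, which most cells use and which alternative splicing divides into M1 and M2 forms, whereas Pklr encodes the liver enzyme and, from a start site used in erythroid cells, the red cell enzyme. Lactate dehydrogenase is a tetramer of Ldha and Ldhb chains, of which Ldha-rich forms favour making lactate from pyruvate. Stem cells in marrow are known for relying on glycolysis, and red cells, which lose their mitochondria as they mature, depend on it. Counts per gene do not separate the M1 from the M2 transcript of Pkm, nor the red cell from the liver transcript of Pklr.

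The 10 HSC libraries other than HSC S211I replicate 2 held 151216 to 2250654 counts, and the 10 MEP libraries 3387389 to 12130358. HSC S211I replicate 2 held 13154016 counts and is shown apart, because its log2(CPM + 1) profile (CPM is the count per 1000000 counts of a library) had a correlation of 0.981, across genes, with the mean MEP profile; HSC libraries otherwise had 0.380 to 0.716 and MEP libraries 0.984 to 0.994. Markers of its label were low in it: 10 HSC marker genes summed to 162 CPM, against 1129 to 5264 in the other HSC libraries and 17.2 to 43.4 in MEP. Another 10 genes, markers of erythroid cells and MEP, summed to 21838 CPM in it, against 2076 to 17814 in the other HSC libraries and 21091 to 25739 in MEP. Procr, a defining stem cell gene, stood between 0 and 0.886 CPM in MEP. One count was worth 0.444 to 6.61 CPM in those 10 HSC libraries and 0.0824 to 0.295 CPM in MEP, so low HSC values are coarse. The biological coefficient of variation was 1.60 in HSC and 0.174 in MEP.

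The sequences just upstream of a transcription start of 3 members are shown because these genes belong to the pyruvate kinase and lactate dehydrogenase pairs. The windows touch no annotated exon, where exons were those of the GENCODE annotation. Each runs 5′ to 3′ on the gene's strand and covers the 250 bases before a RefSeq transcription start in build GRCm38.p6. Capitals mark matches, on either strand, to the motifs searched: AGATAA and the other GATA form TGATAA, the CACCC core of sites for Krüppel-like factors, the E-box CACGTG, the hypoxia-type cores ACGTG (which also lies within the E-box) and, as its variant, GCGTG, and the ETS core CCGGAA.
Pklr, chr3:89135892-89136141, plus strand: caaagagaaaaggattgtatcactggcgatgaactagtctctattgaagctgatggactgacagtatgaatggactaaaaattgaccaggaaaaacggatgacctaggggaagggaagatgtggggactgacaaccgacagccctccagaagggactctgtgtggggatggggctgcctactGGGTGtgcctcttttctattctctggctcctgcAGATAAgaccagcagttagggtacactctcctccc
Ldha, chr7:46845554-46845803, plus strand: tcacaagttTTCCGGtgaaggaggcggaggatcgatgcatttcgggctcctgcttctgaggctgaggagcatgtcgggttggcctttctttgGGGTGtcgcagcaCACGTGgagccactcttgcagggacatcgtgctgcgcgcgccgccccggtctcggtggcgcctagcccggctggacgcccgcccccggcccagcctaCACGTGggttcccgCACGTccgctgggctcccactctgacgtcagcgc
Ldhb, chr6:142507958-142508207, minus strand: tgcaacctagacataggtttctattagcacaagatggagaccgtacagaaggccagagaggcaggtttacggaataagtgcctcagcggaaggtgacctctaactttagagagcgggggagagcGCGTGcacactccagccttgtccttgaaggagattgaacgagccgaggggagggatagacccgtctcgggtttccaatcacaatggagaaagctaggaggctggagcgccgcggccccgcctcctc
The Pklr window, at the more upstream of the starts that had a window here, held AGATAA 35 bases before that start and a reverse-strand CACCC 68 bases before it. The RefSeq gene itself begins at chr3:89136122, inside this window, so the last bases printed lie within it and both matches are nearer to that position. Over 32851 windows of this length, 9.99% held AGATAA, 7.94% the other GATA form and 52.0% CACCC, with both strands read. The Ldha window printed is at the more upstream of the 2 starts that had a window here. The RefSeq gene itself begins further upstream, at chr7:46842274. This window held CACGTG 145 and 48 bases before its start, a motif found in 6.02% of windows. It held further matches to ACGTG (16.6% of windows), to the core of Krüppel-like factor sites and to the ETS core (12.03% of windows). The other Ldha window, chr7:46846832-46847081, also touches no annotated exon; it held no CACGTG and 1 match, to GCGTG, 59 bases before that start. The Ldhb window held a single match, to GCGTG, which 28.2% of windows held. A match is a description of the letters and not a measured binding site. Both Pkm windows overlap annotated exons and are not printed.

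Pkm was high in HSC and low in MEP, in every genotype. Among HSC, the WT libraries held 1303, 1106 and 1286 CPM, the P216L libraries 1254, 829.7 and 259, S211I replicate 1 held 809.9, and the double-mutant libraries 542, 599.8 and 293. Among MEP, the WT libraries held 1.56 and 19.6 CPM, the P216L libraries 15.6, 15.4 and 26.3, the S211I libraries 15.3 and 12.6, and the double-mutant libraries 7.91, 12.5 and 12.99. HSC S211I replicate 2 was at 59.5 CPM, the lowest HSC value. The highest MEP library lay below the lowest HSC library, with that library or without it, as did 0.557% of the genes tested (0.947% without that library). The mean was 828 ± 399.8 CPM (SD, n = 10) in HSC without the library shown apart and 13.97 ± 6.55 CPM (SD, n = 10) in MEP. Over the 4 genotypes and all 21 libraries, Pkm was lower in MEP by a log2 fold change of −5.18 ± 0.55 (SE; edgeR quasi-likelihood test, adjusted p = 8.0e-07), and by −5.20 ± 0.51 without HSC S211I replicate 2 (edgeR, adjusted p = 7.9e-07).

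Within single genotypes the Pkm difference was −6.19 ± 1.20 with wild-type Etv6, −4.81 ± 0.93 with P216L, −4.55 ± 1.13 with S211I and −5.16 ± 0.95 with both changes (log2 fold change ± SE; edgeR, adjusted p = 0.0048, 0.046, 0.71 and 0.013). It was the 1 member called, as lower in MEP, in WT, P216L and the double mutant, where 4.1%, 0.0748% and 0.241% of all tested genes were called, 0.474%, 0.0665% and 0.233% of them as lower. In S211I, 0% of genes were called, and 398 genes had an unadjusted p below 0.05. The HSC side of S211I was replicate 1 and the library shown apart, at 809.9 and 59.5 CPM of Pkm. The S211I values and calls therefore cannot be read as a trait of the genotype. DESeq2 called 3 members in WT, 2 in P216L, 1 (Pkm) in S211I and 2 in the double mutant, where it called 17.9%, 10.7%, 0.864% and 7.87% of all genes. In the double mutant, limma-voom called 2 members with 2.25% of genes, and a fit of only the groups compared called 4 with 7.55%. In WT, a fit of only the groups compared called 0 members, with 0% of genes. The P216L call was lost with replicate number as a block in the fit. The single-genotype calls rested on few libraries. In P216L the call was lost without HSC P216L replicate 2 or any of MEP P216L replicates 1, 2 and 3, and in the double mutant without HSC replicate 1 or any of the MEP replicates 1, 2 and 3, with adjusted p values of up to 0.19 and 0.21 (edgeR). The log2 fold change itself stayed between −5.11 and −4.52 in P216L, and between −5.33 and −4.89 in the double mutant, whichever library was left out. In WT the call was lost without MEP WT replicate 1, where the log2 fold change was −5.13 and the MEP WT arm was 1 library, taken to vary like the other groups. The sizes of the differences between genotypes were tested as well, and 0 of 10 members passed in any of the 3 such contrasts (edgeR, with 0.0997%, 0% and 0.0166% of genes called for P216L, S211I and the double mutant; 1 member had an unadjusted p below 0.05 in the S211I contrast and 0 in the other 2; DESeq2 and limma-voom also gave 0).

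**Figure D1:**
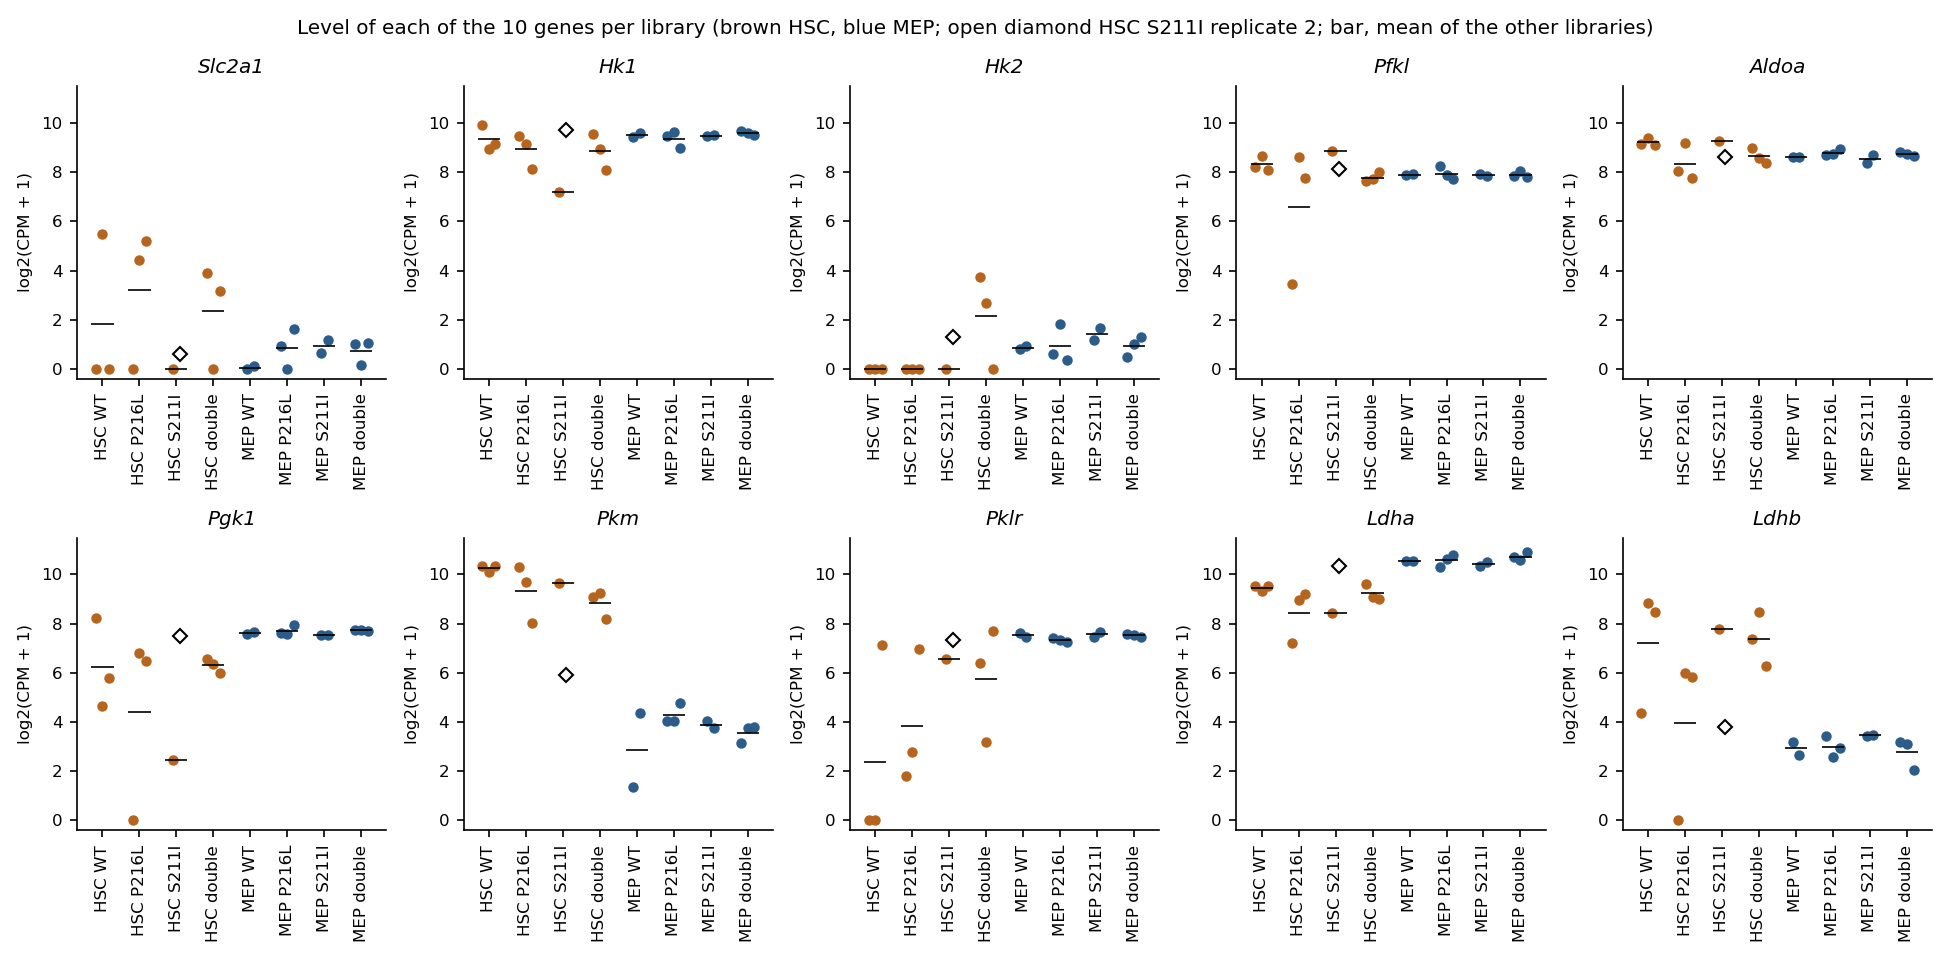
Level of each of the 10 genes in every library, as log2(CPM + 1), by cell type and genotype; brown points are HSC, blue points MEP, the open diamond is HSC S211I replicate 2, and bars are the means of the log values of the other libraries. Pkm lies between 259 and 1303 CPM in the 10 brown libraries and between 1.56 and 26.3 CPM in MEP, and HSC points spread more widely than MEP points for most genes.

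Pklr showed the opposite order in most libraries. Of the HSC libraries, WT held 0, 0 and 139 CPM, P216L held 2.46, 5.97 and 124, S211I replicate 1 held 92.8, and the double mutant held 82.7, 8.12 and 205. A count of 0 allows up to 19.8 CPM in HSC WT replicate 1 and 7.31 CPM in replicate 2 (3 counts of the total, counting error only). Of the MEP libraries, WT held 198 and 174 CPM, P216L held 169, 160.4 and 153, S211I held 175 and 202, and the double mutant held 192, 187 and 172. The MEP libraries were narrow, at 178 ± 16.1 CPM (SD, n = 10), against 66.1 ± 73.6 (SD, n = 10) in HSC, and 1 HSC library, double mutant replicate 3, lay above the MEP range. HSC S211I replicate 2 was at 161 CPM, inside the MEP range. The difference over 4 genotypes did not pass the test, at 1.54 ± 0.76 with all libraries and 1.92 ± 0.92 without HSC S211I replicate 2 (log2 fold change ± SE; edgeR, adjusted p = 0.17 and 0.13). Without HSC WT replicate 3, the 1 WT stem cell library with Pklr counts, it was 4.12 and passed; it also passed without HSC P216L replicate 3, at 2.50.

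The balance of the 2 pyruvate kinases was read within each library, where library size cancels out. As a share of summed Pkm and Pklr counts, Pkm made up 100%, 100% and 90.2% of the WT stem cell libraries, 99.8%, 99.3% and 67.5% of those with P216L, 89.7% of S211I replicate 1, and 86.8%, 98.7% and 58.8% of those with both changes. MEP libraries had shares of 0.780% and 10.1% (WT), 8.45%, 8.76% and 14.6% (P216L), 8.06% and 5.85% (S211I), and 3.95%, 6.25% and 7.01% (double mutant). HSC S211I replicate 2 was at 27.0% (95% exact binomial interval 25.4 to 28.7%, from 783 Pkm and 2116 Pklr counts), between the 2 cell types and apart from both. The median was 94.4% over the other HSC libraries and 7.53% over MEP, and the ranges, 58.8 to 100% and 0.780 to 14.6%, did not meet. The mean log2 ratio of Pkm to Pklr (pseudocount 0.5) was 4.15 in HSC and −3.99 in MEP, a difference of −8.14 averaged over genotypes. A 2-sided exact permutation of cell type within genotype gave p = 4.2e-05, the smallest that its 24000 assignments allow. Without HSC S211I replicate 2 the difference was −8.71 (exact permutation p = 8.3e-05, the smallest of 12000 assignments).

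By genotype the difference in this log2 ratio was −12.25 for WT, −8.59 with P216L, −4.59 with S211I (−6.86 without HSC S211I replicate 2) and −7.14 with both changes. The WT value rests on HSC libraries with 0 Pklr counts and on MEP WT replicate 1, which held 9 Pkm against 1145 Pklr counts, so its size depends on the pseudocount. Whether the genotypes differ in this balance was not tested.

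**Figure D2:**
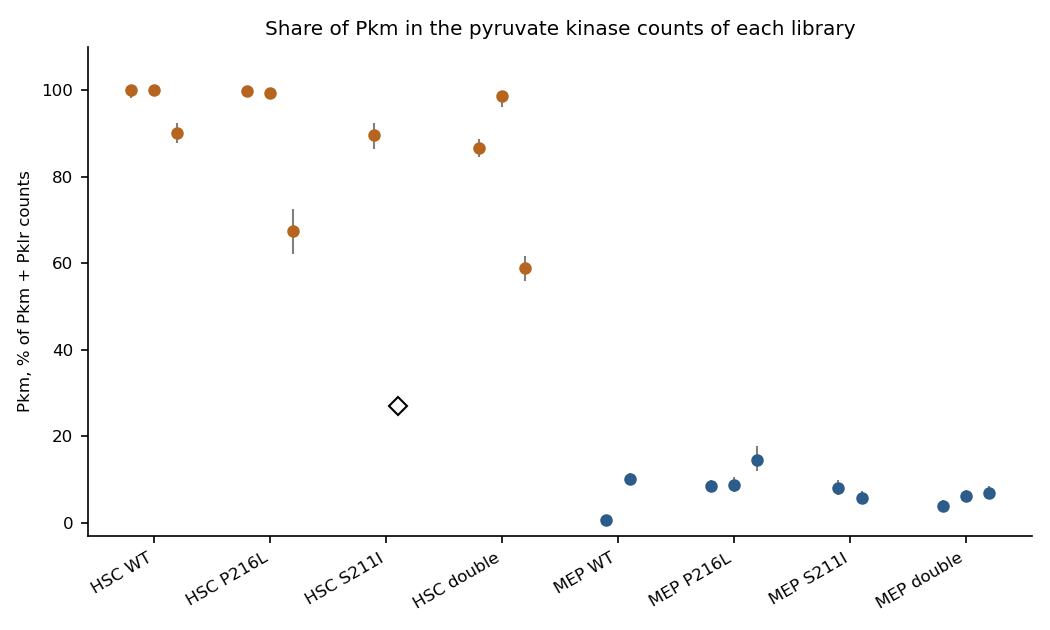
Pkm as a percentage of the summed Pkm and Pklr counts in each library (points) with 95% exact binomial intervals (grey bars, counting error only), by cell type and genotype. The 10 HSC libraries lie between 58.8 and 100%, all MEP libraries between 0.780 and 14.6%, and HSC S211I replicate 2 (open diamond) at 27.0%.

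The summed level of erythroid markers varied among the HSC libraries. The summed CPM of 10 erythroid and MEP markers was 2076 to 6119.7 in HSC WT and 7243 to 17814 in the 7 HSC mutant libraries other than the one shown apart. Of these markers, 0 of 10 passed in P216L, S211I or the double mutant against WT (edgeR; 6, 5 and 4 had an unadjusted p below 0.05, and DESeq2 called 1 in each). Over all 9471 genes tested, 1223, 772 and 997 had an unadjusted p below 0.05 (edgeR). The share of all genes that DESeq2 called there is not given here. The S211I contrast includes the library shown apart. The highest sums, 17814 in P216L replicate 3 and 13863 in double mutant replicate 3, were in the libraries with the lowest Pkm, 259 and 293 CPM, and the lowest Pkm shares. The same libraries had 1129 and 1338 CPM of summed HSC markers, the lowest of the 10, and 5186 and 2645 CPM of 5 proliferation genes, against 279 to 392 in HSC WT. Neutrophil and myeloid markers summed to 260.2 to 4101 CPM in the 10 HSC libraries and 5.36 to 193 in MEP, and endothelial and stromal markers to 24.7 to 3813 and 0.541 to 15.3. Of the myeloid markers, Lyz2, S100a8, S100a9, Ngp and Prtn3 had higher means in HSC. Mpo (28.7 and 29.4 CPM in HSC and MEP), Elane (3.57 and 4.30) and Ctsg (0 and 1.92) did not. The sum of 3813, in HSC P216L replicate 1, was Col1a1 alone, the 1 of 6 stromal markers detected there. The part of these markers in the levels of the glycolysis genes was not tested. In bulk libraries, fewer cells of one type and less RNA of a gene per cell cannot be told apart.

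**Figure D3:**
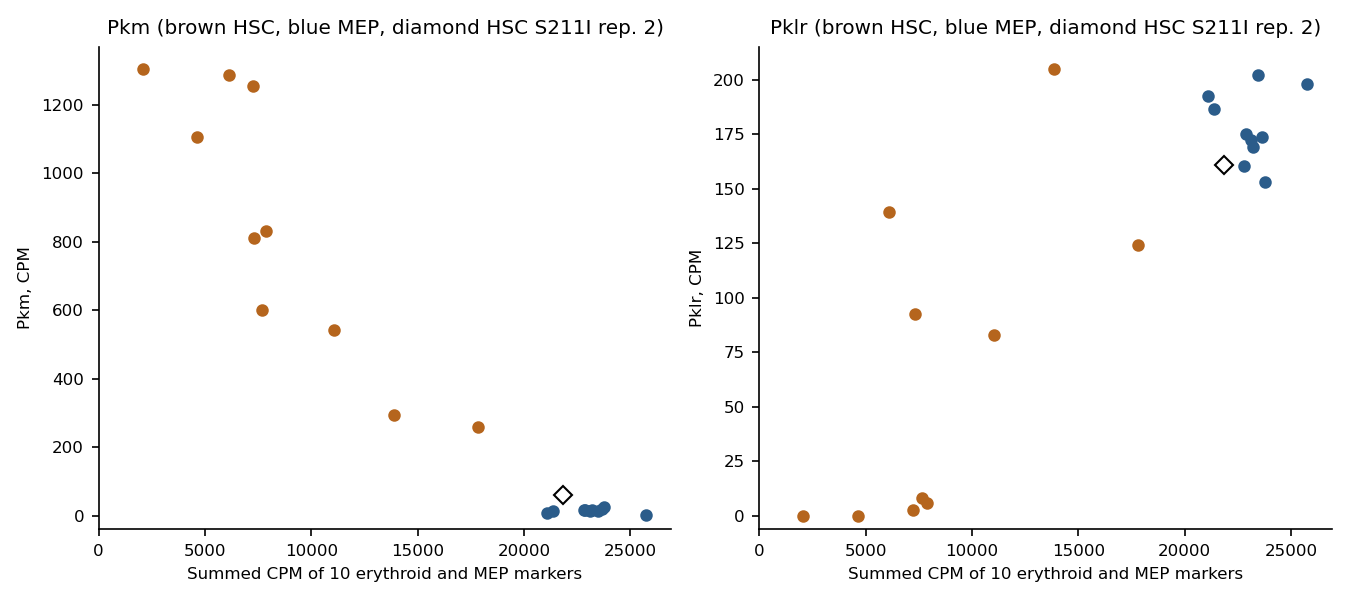
Pkm (left) and Pklr (right) in CPM against the summed CPM of 10 erythroid and MEP markers in each library; HSC in brown, MEP in blue, HSC S211I replicate 2 as an open diamond. The HSC library with the most marker RNA is the lowest of the 10 for Pkm, at 259 CPM and a sum of 17814, and MEP libraries lie at sums of 21091 to 25739 with Pkm at 26.3 CPM or less.

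The genes whose levels ranked most like Pkm over the 20 libraries without HSC S211I replicate 2 were Meis1 and Pik3ip1 (Spearman rho 0.94 each), Ctla2a (0.93), H2-K1 and Cd27 (0.92 each), out of 12036 genes. Meis1, a homeobox factor of stem cells, ranged from 94.2 to 678 CPM in the 10 HSC libraries and from 2.94 to 13.6 in MEP. For Pklr the closest were Maco1 (0.94), Zfp2 (0.93), Gm51425, Nanos1 and Tbccd1 (0.91 each). The 20 libraries hold both cell types, which also differ in depth. The ranks carry no p value and were not computed within a cell type.

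Ldha was higher in MEP. HSC libraries held 734, 646 and 729 CPM (WT), 145, 498 and 586 (P216L), 344 (S211I replicate 1) and 790.0, 547 and 518 (double mutant). MEP libraries held 1484 and 1488 CPM (WT), 1275, 1569 and 1771 (P216L), 1297 and 1434 (S211I) and 1669.5, 1522 and 1902 (double mutant). Each MEP library lay above each of those 10 HSC libraries, a pattern of 3.65% of the genes tested. HSC S211I replicate 2, at 1289 CPM, lay inside the MEP range, so that against all 11 HSC libraries 0 members were above in every MEP library, as were 0.781% of genes. The means were 554 ± 195 CPM in HSC (SD, n = 10) and 1541 ± 197 in MEP (SD, n = 10). The log2 fold change over genotypes was 1.61 ± 0.29 with all libraries and 2.21 ± 0.32 without HSC S211I replicate 2 (SE; edgeR, adjusted p = 0.00084 and 8.9e-05). Within genotypes it did not pass, at 1.75 ± 0.59 for WT, 2.19 ± 0.55 with P216L, 0.82 ± 0.65 with S211I and 1.68 ± 0.54 with both changes (edgeR, adjusted p = 0.072, 0.075, 1 and 0.12). The HSC side of S211I includes the library shown apart, at 1289 CPM, beside 344 in replicate 1.

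Ldhb was lower in MEP. HSC libraries held 19.8, 453 and 349.7 CPM (WT), 0, 62.1 and 56.5 (P216L), 222 (S211I replicate 1) and 164, 349 and 76.4 (double mutant), with 12.8 in S211I replicate 2. MEP libraries held 8.13 and 5.36 CPM (WT), 9.83, 4.98 and 6.79 (P216L), 9.72 and 10.2 (S211I) and 8.11, 7.73 and 3.11 (double mutant). HSC P216L replicate 1, with no Ldhb count (up to 7.39 CPM allowed), was the 1 HSC library that did not lie above all MEP libraries. The log2 fold change over genotypes was −3.70 ± 0.82 with all libraries and −3.72 ± 0.79 without HSC S211I replicate 2 (SE; edgeR, adjusted p = 0.0038 and 0.0033). Ldha made up 99.2 to 99.8% of the summed Ldha and Ldhb counts in MEP (median 99.5%), 58.8 to 100% in the 10 HSC libraries (median 85.0%) and 99.0% in HSC S211I replicate 2. This share was computed after the values were seen and is a description only.

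Glucose entry and trapping came next in order of the pathway. Slc2a1 encodes the transporter GLUT1, which mature red cells of adult mice largely lack. It was listed at 0 in 5 of the 10 HSC libraries, and stood at 43.9 CPM in WT replicate 2, 20.3 and 35.3 in P216L replicates 2 and 3, and 14.1 and 7.998 in double mutant replicates 1 and 3. In MEP it ranged from 0 to 2.07 CPM (median 0.722), and in HSC S211I replicate 2 it was 0.532. The HSC zeros allow up to 19.8 CPM in WT replicate 1, so HSC and MEP values overlap. Its log2 fold change of −3.26 ± 1.06 passed with all libraries (± SE, edgeR, adjusted p = 0.035). Without HSC S211I replicate 2 it was −2.16, but the S211I arm of HSC was then 1 library with 0 Slc2a1 counts. That fit therefore cannot show whether the call depends on the library shown apart. Without HSC WT replicate 2 it was −1.12 and did not pass, and the HSC WT libraries left were at 0.

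Hk1, the hexokinase of many tissues and of red cells, held 966, 486 and 562 CPM in the WT stem cell libraries, 712, 572 and 279 with P216L, 147 in S211I replicate 1, and 743, 495 and 271 with both changes. In MEP it ranged from 501 to 814 CPM (median 719), and HSC S211I replicate 2 was at 829. The HSC range enclosed the MEP range. The log2 fold change of 0.79 ± 0.31 did not pass with all libraries (SE; edgeR, adjusted p = 0.080) and was 1.50 ± 0.31 without HSC S211I replicate 2 (edgeR, adjusted p = 0.0026). Hk2, the hexokinase often induced by insulin and hypoxia, was at 0 in 8 of the 10 HSC libraries, at 12.2 and 5.41 CPM in double mutant replicates 1 and 2, and at 0.295 to 2.57 CPM in MEP. Its mean was 1.76 ± 4.04 CPM in HSC and 1.14 ± 0.750 in MEP (SD, n = 10 each), while the fitted log2 fold change was 2.19 ± 1.39 towards MEP and did not pass (SE; edgeR, adjusted p = 0.30), so mean and fit differ in sign. It was too low to be tested between HSC genotypes.

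Pfkl and Aldoa, which carry out the committed step and the splitting of the sugar, did not separate the cell types. Pfkl was at 269.7 ± 129 CPM in HSC (SD, n = 10; range 9.85 to 466) and 239.9 ± 25.1 in MEP (SD, n = 10; range 208 to 301). Aldoa was at 468 ± 157 CPM in HSC (SD, n = 10; range 219 to 673) and 415 ± 41.3 in MEP (SD, n = 10; range 335 to 495). For both genes the MEP range lay inside the HSC range, and the library shown apart was inside the MEP range, at 276 and 394 CPM. Their log2 fold changes over genotypes were 0.18 ± 0.45 and 0.23 ± 0.30 (SE; edgeR, adjusted p = 0.88 and 0.69), opposite in sign to the difference in mean CPM. The fits used TMM factors (trimmed mean of M values), and CPM used library totals alone. With RLE factors (relative log expression) they were −0.20 and −0.18.

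Pgk1, which makes the first ATP of the pay-off phase, was uneven in HSC: 298, 24.4 and 54.1 CPM (WT), 0, 109.8 and 88.2 (P216L), 4.52 (S211I replicate 1) and 94.6, 81.2 and 62.8 (double mutant). In MEP it ranged from 185 to 242 CPM (median 197), and HSC S211I replicate 2 was at 179. All of the 10 HSC libraries but WT replicate 1 lay below the MEP range. The log2 fold change was 1.52 ± 0.64 with all libraries and 2.90 ± 0.78 without HSC S211I replicate 2 (SE; edgeR, adjusted p = 0.10 and 0.012). It also passed without HSC WT replicate 1, at 1.84.

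Of the 10 members, 4 were called between MEP and HSC over the genotypes (Ldha higher; Ldhb, Pkm and Slc2a1 lower; edgeR, adjusted p below 0.05), where 17.5% of 12036 genes were called, 12.2% higher and 5.31% lower. Without HSC S211I replicate 2, 5 were called (Hk1, Ldha and Pgk1 higher; Ldhb and Pkm lower), where 23.3% of genes were called, 19.7% higher and 3.6% lower. The members' median log2 fold change was 0.51, beside a median of 0.63 over all genes tested. Without HSC S211I replicate 2 the median of all genes was 1.20, beside 1.50 for Hk1 and 2.90 for Pgk1 in that fit. The background also depends on the scaling: with RLE size factors the median of all genes was 0.28, and the share of calls that were higher in MEP was 53.3% in place of 69.7%. Relative to the background median, Ldha lay above it and Pkm and Ldhb far below it under both scalings, whereas Hk1, at 0.79, Aldoa, at 0.23, and Pfkl, at 0.18, were closer to it.

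**Figure D4:**
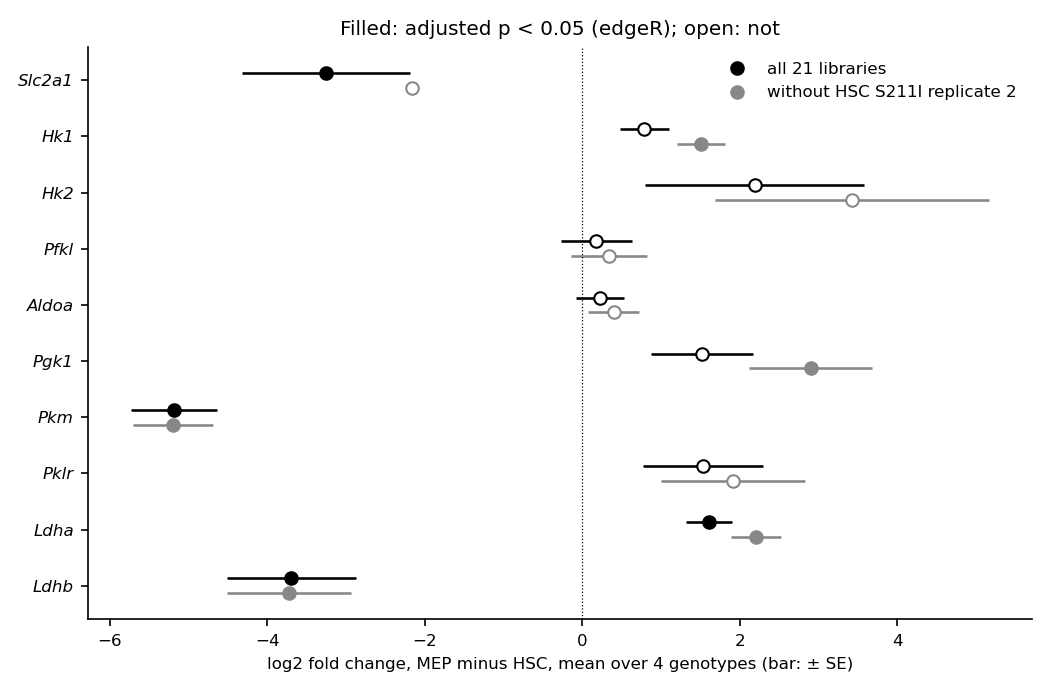
Log2 fold change of each gene, MEP minus HSC as the mean over 4 genotypes, with bars of ± SE, which is derived from the test statistic. Black is the fit of all 21 libraries, grey the fit without HSC S211I replicate 2, and filled points have an edgeR adjusted p below 0.05. The grey Slc2a1 point has no bar, because its HSC S211I arm is then 1 library with 0 counts and the derived SE has no useful meaning. Pkm (−5.18) and Ldhb (−3.70) lie to the left and Ldha (1.61) to the right in both fits, while Hk1 and Pgk1 change their call between them. The Slc2a1 call changes as well, but its grey fit cannot be read for the reason given.

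Ranked by CPM per kilobase of transcript, so that genes can be compared, Pkm, Ldha and Aldoa led in the 10 HSC libraries, with medians of 367, 357 and 347. Hk1 (141), Ldhb (92.2), Pfkl (70.2), Pgk1 (39.5) and Pklr (15.97) followed, with Slc2a1 at 1.23 and Hk2 at 0, and the ranges of every pair of neighbours overlapped. In MEP the order was Ldha (948), Aldoa (274), Hk1 (192), Pgk1 (108), Pfkl (63.2), Pklr (61.3), Pkm (6.33), Ldhb (6.08), Hk2 (0.234) and Slc2a1 (0.221). There, neighbours did not overlap except Pfkl with Pklr, Pkm with Ldhb, and Hk2 with Slc2a1. Pkm thus led the order in HSC by its median and stood seventh in MEP. Ldha alone made up 41.2 to 52.1% of the summed CPM of the 10 members in MEP, 6.09 to 31.5% in the 10 HSC libraries and 40.3% in HSC S211I replicate 2. The sum itself was 3830 to 4179 CPM in HSC WT, 1859 to 3139 in the 7 HSC mutant libraries, 3201 in the library shown apart and 2972 to 3653 in MEP.

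Depth was made equal by thinning each library to 151215 counts. Pkm then held 35 to 197 counts in the 10 HSC libraries and 0 to 6 in MEP, and Ldha 22 to 131 against 173 to 296, so neither pair of ranges met. HSC S211I replicate 2 held 5 Pkm and 208 Ldha counts at that depth, both inside the MEP range. Ldhb held 0 to 59 counts in HSC and 0 to 3 in MEP, and Pklr 0 to 32 and 20 to 37. Slc2a1 was detected in 5 of 10 HSC libraries and in 3 of 10 MEP libraries at that depth, with at most 8 counts and 1 count, and Hk2 in 2 and 3.

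Between Etv6 genotypes within a cell type, no member passed the test. In HSC, 0 of 9 members tested were called in each of 5 contrasts (edgeR; 0 with an unadjusted p below 0.05), where 0.106% (P216L against WT), 0.0845% (S211I against WT), 0.0739% (double mutant against WT), 0.0211% (double mutant against P216L) and 0.0106% (double mutant against S211I) of genes were called. DESeq2 also gave 0 in each. Pkm had lower values in each mutant than in WT, with differences of −0.61 ± 0.69 in P216L, −1.34 ± 0.80 in S211I and −1.12 ± 0.69 with both changes (log2 fold change ± SE; edgeR, adjusted p = 0.90, 0.65 and 0.60). The S211I value includes the library shown apart, at 59.5 CPM, beside 809.9 CPM in S211I replicate 1, so its size rests in part on that library. All 3 WT libraries, at 1106 CPM or more, were above the 7 mutant libraries except P216L replicate 1, at 1254. For Ldhb in P216L the value was −2.59 ± 1.70 (edgeR, adjusted p = 0.55), the lowest adjusted p of the members in that contrast. With limma-voom and quality weights, which differ in how libraries are weighted, 1 member (Pkm) was called for S211I against WT, where that method called 6.58% of genes, and 3 (Ldhb, Pkm and Ldha) for the double mutant against S211I, where it called 1.21%, contrasts that both hold the library shown apart.

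The spread between MEP libraries was smaller, and 0 of 9 members were again called in each of the 5 contrasts (edgeR), where 0%, 0%, 0.102%, 0.111% and 0.139% of genes were called for the P216L, S211I and double-mutant groups against WT, and for the latter against P216L and against S211I. One member had an unadjusted p below 0.05: Ldha in the double mutant against S211I, at 0.34 ± 0.13 (log2 fold change ± SE; edgeR, adjusted p = 0.58). DESeq2 and limma-voom gave 0 in each. For Ldha against WT the values were 0.03 ± 0.13 in P216L, −0.16 ± 0.14 in S211I and 0.18 ± 0.13 in the double mutant, and for Pklr −0.23 ± 0.13, −0.02 ± 0.14 and −0.03 ± 0.13 (edgeR, all adjusted p above 0.05). Pkm, lower and less even, had 0.74 ± 0.69, 0.29 ± 0.75 and 0.01 ± 0.69, and its P216L value passed without MEP WT replicate 3 (edgeR, adjusted p = 0.023, with 0.0625% of genes called). The WT arm was then 1 library, with 9 Pkm counts, taken to vary like the other groups. The coefficient of variation over the 10 MEP libraries was 8.54% for Pgk1, 9.03% for Pklr, 9.95% for Aldoa, 10.5% for Pfkl, 11.98% for Hk1 and 12.8% for Ldha, against 31.6% for Ldhb, 46.9% for Pkm, 65.6% for Hk2 and 96.3% for Slc2a1.

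Among 69 other genes of glucose metabolism and its control, 54 could be tested between MEP and HSC over the genotypes, and 11 were higher and 1 lower in MEP (edgeR, adjusted p below 0.05), where 12.2% and 5.31% of all genes were. Their median log2 fold change was 0.89, beside 0.63 over all genes tested. Without HSC S211I replicate 2, 20 of 58 were higher and 1 lower (median 1.35), beside 19.7% and 3.6% of all genes and their median of 1.20. The counts by group in what follows are read against the same shares. With all libraries, 3774 of the 12036 genes tested had an unadjusted p below 0.05 (edgeR), and DESeq2 called 2790 of 12036. Counts by unadjusted p or by DESeq2 are read against those. Of 5 tested pay-off enzymes other than the members, 2 rose: Gapdh, the dehydrogenase that precedes Pgk1, from 392 ± 149 to 923 ± 111 CPM (1.46 ± 0.29, edgeR, adjusted p = 0.0017), and Eno1, enolase, from 797 ± 195 to 1015 ± 75.3 (0.70 ± 0.23, edgeR, adjusted p = 0.034; SD, n = 10 and 10). The Eno1 value lay close to the median of all genes, 0.63. Of 6 tested preparatory enzymes 0 passed (edgeR; 2 had an unadjusted p below 0.05, and DESeq2 called 1). Tpi1 was at 304 ± 201 and 454 ± 39.5 CPM and passed without HSC S211I replicate 2 (edgeR, adjusted p = 0.064 with that library and 0.037 without). Gpi1 was at 160.4 ± 108 and 193.6 ± 21.96, and the muscle-type phosphofructokinase Pfkm at 92.3 ± 99.9 and 228 ± 19.7. Of 2 tested glucose transporters 0 passed (edgeR; 0 had an unadjusted p below 0.05, and DESeq2 called 0), and Slc2a3, which encodes GLUT3, was at 216.1 ± 223 CPM in HSC and 67.7 ± 11.2 in MEP. Slc2a8, the other one tested, was at 30.1 ± 47.3 and 59.2 ± 8.44 CPM.

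Of 11 tested genes that decide the fate of pyruvate, 1 rose: Pdha1, a subunit of pyruvate dehydrogenase, from 102.8 ± 141.1 to 345 ± 28.1 CPM (2.40 ± 0.70, edgeR, adjusted p = 0.019). Mpc1 and Pdhb, which carry pyruvate into mitochondria and encode the partner subunit of Pdha1, passed without HSC S211I replicate 2 (edgeR, adjusted p = 0.038 and 0.032) but not with it (0.057 and 0.097). Of 4 monocarboxylate transport genes, 1 rose: Bsg, the chaperone of lactate carriers, from 400.0 ± 235 to 712 ± 39.3 CPM (1.07 ± 0.36, edgeR, adjusted p = 0.042). The lactate carrier Slc16a1 was at 147 ± 126 and 359.6 ± 34.0 CPM and did not pass (1.67 ± 0.60, edgeR, adjusted p = 0.055). In the side branch and among flux regulators, 0 of 6 tested genes passed over the genotypes (edgeR; 1 had an unadjusted p below 0.05, and DESeq2 called 2), and 1, Pfkfb4, passed without HSC S211I replicate 2 (edgeR, adjusted p = 0.10 with that library and 0.031 without). Bpgm, which makes the red cell metabolite 2,3-bisphosphoglycerate, was at 90.9 ± 102.8 CPM in HSC and 24.5 ± 7.33 in MEP. In the WT contrast, where 3.62% of all genes were higher and 0.474% lower, 4 of 54 tested pathway genes rose (Gapdh, Pdha1, Klf1 and Myc) and 1 fell: Fbp1, a gluconeogenic enzyme, at 192, 149 and 22.9 CPM in HSC and 0 and 0.330 in MEP (−8.38 ± 2.28, edgeR, adjusted p = 0.037).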

How the data were processed

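Values deposited by the authors are estimated counts, 1 row per Entrez gene and 1 column per library (21 libraries); the submitters' processing notes name FastQC, Salmon and GRCm39, with versions not given in the sources used here. Extraction was with NucleoSpin RNA XS and library preparation with SMART-Seq v4, per the labels' protocols. Column totals differ from library to library (151216 to 13154016), and 6.09 to 33.1% of nonzero values per library were not whole; Salmon can split reads between similar transcripts. Among members this held for 0 (Slc2a1) to 13 (Hk1) of 21 values, and for 12 each of Pkm and Pklr. The split values were not traced to gene copies; members with near-identical copies elsewhere, Pgk1, Ldha and Aldoa among them, are uncertain. Symbols came from a GRCm38.p6 RefSeq table and matched 30211 of 30519 rows. Transcript lengths for CPM per kilobase were medians of annotated coding transcripts in that older build.

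Counts were rounded and tested with edgeR 4.0.16 (limma 3.58.1, R 4.3.3): TMM size factors, filterByExpr (minimum count 10, minimum total 15), robust quasi-likelihood fits and Benjamini-Hochberg adjustment over all genes of a contrast at 0.05. There were 18 contrasts from 3 fits, of HSC (9471 genes), of MEP (10773) and of both (12036). MEP against HSC came from the joint fit, which gives a gene 1 spread for both cell types. Each SE given with an edgeR value was derived from the test, as the absolute log2 fold change over the square root of the F statistic. Where an arm held no counts, such an SE has no useful meaning. CPM used library totals alone. The scripts were tested on simulated data. Pairs of libraries within groups differed by more than sampling noise (chi-square per degree of freedom 4.63 to 88.2 over 18 pairs).

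Alternatives were RLE size factors, no filter, replicate number as a block, DESeq2 1.42.0, limma-voom with quality weights, thinning to 151215 counts, leaving out each library in turn, and fits restricted to the groups of a contrast. The members, lists and tests were chosen with earlier results of these data known. Named genes were all 10 members, the called members of each pathway list plus up to 4 more by mean CPM, and the 5 genes ranked most like Pkm and Pklr.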

Additional observations from a re-analysis of the deposited data

How the results depend on the processing

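Over the 4 genotypes, 3 to 5 members were called when 1 library was left out and 3 or 4 under the other settings. Pkm and Ldhb passed in 27 of 27 alternatives (edgeR, DESeq2 or limma, adjusted p up to 0.00018 and 0.037) and Ldha in 26 of 27 (0.055 with limma-voom); Slc2a1 passed in 12 of 26, Pklr in 4, Pgk1 in 3 and Hk1 in 2 of 27. Aldoa reversed with RLE size factors (−0.18) and DESeq2 (−0.18), and Pfkl with RLE (−0.20), DESeq2 (−0.20) and thinning (−0.012). Within genotypes, DESeq2 called 3 members in WT, 2 in P216L, 1 in S211I and 2 in the double mutant. It called 17.9%, 10.7%, 0.864% and 7.87% of all genes there. Limma-voom called 2 in the double mutant, 1 for HSC S211I against WT and 3 for the HSC double mutant against S211I, with 2.25%, 6.58% and 1.21% of all genes. Fits of only the groups compared called 0 in WT and 4 in the double mutant, with 0% and 7.55% of all genes. Leaving out 1 library gave 0 to 2 calls in P216L and 0 or 1 in the double mutant. The shares of all genes called in those refits are not given here, so these counts cannot be set against a background. The Pkm to Pklr difference ran from −8.71 to −7.57 with 1 library left out. The 2106 genes called in all became 5135 with limma-voom, 940 with thinning, and 922 to 3261 with 1 library left out (922 without HSC S211I replicate 1, 3261 without HSC P216L replicate 3). The cause of these changes was not tested. Of 10 pairs of HSC and MEP libraries with the same number and genotype, 0 correlated over 0.1 in their deviations from the group means. With small groups and the wide spread of HSC, this cannot exclude that replicate numbers pair the libraries. With replicate number as a block, 2057 genes were called, 0 members were called within P216L, Pklr passed (2.59) and Slc2a1 did not (−3.31). Depth limits the HSC values, where 3 counts were worth 1.33 to 19.8 CPM; values below that are within counting error of 0.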

Other observations

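The pentose phosphate pathway branches off at glucose 6-phosphate and supplies NADPH and ribose. Of its 7 genes tested between MEP and HSC over the genotypes, 2 rose in MEP, where 12.2% of all genes did: Tkt, transketolase, from 331 ± 139 to 573 ± 53.6 CPM (SD, n = 10 HSC and 10 MEP libraries; log2 fold change 1.11 ± 0.34, edgeR, adjusted p = 0.024) and Pgls, the lactonase, from 31.1 ± 28.7 to 102 ± 12.6 CPM (2.10 ± 0.67, edgeR, adjusted p = 0.032). Taldo1, at 309 ± 186 and 711 ± 56.6 CPM, and G6pdx, at 80.0 ± 152 and 186.0 ± 19.01 CPM, did not pass (edgeR, adjusted p = 0.054 and 0.069). Without HSC S211I replicate 2, which the CPM means leave out, both passed (edgeR, adjusted p = 0.020 and 0.013), as did Pgd (0.010), in a fit that called 19.7% of all genes as higher.

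Among 9 tested regulators, 3 rose and 1 fell in MEP, beside 12.2% and 5.31% of all genes. Myc rose from 445 ± 230.5 to 774 ± 105 CPM (1.24 ± 0.28, edgeR, adjusted p = 0.0040), and the erythroid factors Klf1 and Gata1 rose from 374 ± 316 to 665 ± 52.3 and from 141 ± 129 to 467 ± 25.3 CPM (edgeR, adjusted p = 0.015 and 0.020). Txnip, which restrains glucose uptake, fell from 526 ± 271 to 82.3 ± 17.3 CPM (−2.13 ± 0.44, edgeR, adjusted p = 0.0023). Of 4 factors that act on Pkm splicing, Hnrnpa1 (525 ± 275 to 1109 ± 105 CPM) and Srsf3 (715 ± 262 to 1068 ± 77.4 CPM) rose (edgeR, adjusted p = 0.011 and 0.016), and Ptbp1, at 219.7 ± 146 and 471 ± 48.2 CPM, did not pass (edgeR, adjusted p = 0.13). Hnrnpa2b1 and, among the regulators, Vhl passed only without HSC S211I replicate 2 (edgeR, adjusted p = 0.017 and 0.028, against 0.051 and 0.16 with it). Between genotypes, 1 of these pathway genes passed in any contrast within a cell type: Egln1, an oxygen-sensing prolyl hydroxylase, fell in MEP of the double mutant against P216L, from 42.1, 35.3 and 22.4 to 10.8, 14.7 and 13.9 CPM (−1.34 ± 0.24, edgeR, adjusted p = 0.019), where 0.102% of all genes were called as lower.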
